A study of Mus musculus with 8 samples.

Results

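The genes described here are 10 immediate early genes, Fos, Fosb, Jun, Junb, Jund, Egr1, Atf3, Ier2, Ier3 and Zfp36, in biliary cells that had been sorted from mouse liver. They were chosen by name, are 10 of the 46603 genes in the count table, and all 10 passed the filter on low counts that left 13605 genes for testing. RNA-Seq had been performed on 8 libraries from 4 mice. One library of each mouse was from EGFP+EpCAM+CD45- cells (liver label-retaining cells, LLRCs) and the other from EGFP-EpCAM+CD45- biliary cells (non-LRC cells), so that each group held 4 libraries. All mice carried R26rtTA het/H2B-EGFP het, had a mixed background of C57BL/6 and CBA, were exposed to doxycycline (dox) between birth and postnatal day 5, and were sorted at 8 weeks of age. The sexes of these mice were not used. Both transgenes and the dox exposure were thus shared by both groups, and the transactivator was expressed from the Rosa26 locus, which is active in nearly every cell type. EGFP+ cells are those that still held the histone label at the sort, and EGFP- cells can have lost the label through division or never have carried it. Every library came from a liver that had been perfused, digested with collagenase, stained and sorted, and no library of undissociated tissue was analysed here.

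Immediate early genes are transcribed within minutes of a stimulus, without the need for newly made protein. Kinase cascades act on transcription factors that already sit at their promoters, such as SRF with its ELK partners and CREB. FOS and JUN proteins pair to form the AP-1 transcription factor, EGR1 is a zinc finger transcription factor, ATF3 is a stress-induced bZIP factor, and ZFP36 speeds the decay of AU-rich mRNAs, those of several of these genes included. The mRNAs are short-lived, and enzymatic dissociation and sorting of tissue are known to induce them. Comparing their levels between the groups and between the mice therefore shows how evenly this class of transcripts was represented in the sorted cells.

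Library totals were between 7860021 and 9851819 counts in the LLRC libraries and between 4670132 and 8056103 in the non-LRC libraries. The sort marker Epcam ran from 547.2 to 651.5 CPM (counts scaled to library size) in LLRCs and from 432.5 to 765.5 CPM in non-LRC cells, and the cholangiocyte keratin Krt19 from 89.1 to 143.7 and from 94.6 to 172.4 CPM. Of the 9 cholangiocyte markers, 7 had a log2 fold change above 0, with a median of 0.29, and Cftr was higher in LLRCs at an unadjusted p below 0.05 (log2 fold change 1.43). Markers of other cell types differed between the groups. Endothelial markers had a sum of 30.05 to 56.5 CPM in LLRCs and 190.4 to 638.8 CPM in non-LRC cells. Of the 11 endothelial markers 10 could be tested, and all 10 were lower in LLRCs at an unadjusted p below 0.05 with none called after adjustment. Leukocyte markers summed to between 1.45 and 6.55 CPM in LLRC libraries and between 0.626 and 16.1 CPM in non-LRC libraries, with Cd3e and Cd79a at 0 in all 8 libraries, and hepatocyte markers to between 2073 and 5714 CPM. Ptprc, which encodes CD45 and was the 1 leukocyte marker that could be tested, had 5, 34, 14 and 59 counts in LLRCs against 0, 0, 0 and 7 in their non-LRC partners and was higher in LLRCs at an unadjusted p = 0.0468 (edgeR). The macrophage genes Adgre1, Clec4f, C1qa and C1qb had 0 counts in every LLRC library and at most 39 in a non-LRC library. Of the 9 hepatocyte markers, 8 had a log2 fold change below 0, with a median of -1.81 over the 9, and 5 (Apoa1, Cyp2e1, Ass1, Cps1 and Tat) were lower in LLRCs at an unadjusted p below 0.05, as were Dcn and Lrat among the 5 stellate and fibroblast markers tested. Of those 5, Rgs5 and Reln had a log2 fold change above 0, at 0.57 and 0.32. None of the markers in any list was called after adjustment. In bulk libraries, fewer cells of a type and less RNA per cell cannot be told apart. Pancreatic acinar markers summed to 837.6 CPM in the non-LRC library of JV6314 and to at most 22.3 CPM in the other libraries.

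Levels were compared between genes as CPM per kilobase of exon, with library sizes scaled by TMM (the trimmed mean of M values). Fos had the highest level of the 10 genes in both groups, at 402.9 ± 184.4 CPM per kb in LLRCs and 352.4 ± 185.6 in non-LRC cells (SD, n = 4). This placed Fos at rank 77 of the 13561 tested genes with an exon length in LLRCs and rank 88 in non-LRC cells, within the top 0.568% and 0.649%. Ier2 followed with 207.3 ± 65.1 and 189.6 ± 91.8 CPM per kb, and Egr1 with 180.1 ± 55.9 and 143.2 ± 73.1, and these neighbours did not differ beyond their spread. Jun had 81.8 ± 40.6 and 75.6 ± 43.2 CPM per kb and Junb 63.5 ± 46.7 and 79.8 ± 54.7, a pair whose order was opposite in the groups. Atf3, Zfp36 and Ier3 followed, with means from 21.7 to 32.4 CPM per kb in LLRCs and from 18.7 to 27.0 in non-LRC cells. Jund and Fosb were the lowest, Jund with 1.54 CPM per kb in LLRCs and 2.17 in non-LRC cells, and Fosb with 1.27 and 1.25. Fosb was thus at rank 10709 in LLRCs while Fos, of the same family, was at rank 77. The level of Jund may be too low, because 52.6% of its exon bases are shared with an antisense gene and reads were counted without strand.

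The promoters of 8 of the 10 genes were found in the RefSeq table (GRCm38.p6), and those of Egr1 and Ier2 were not. The 250 bases before the start of Fos, Fosb and Junb are shown because they hold the core letters of the cAMP response element, TGACG. Atf3 holds these letters on the other strand and is not shown. Each is written 5′ to 3′ on the strand of the gene, Fos from chr12:85473640-85473889 (plus strand), Fosb from chr7:19310046-19310295 (minus strand) and Junb from chr8:84978749-84978998 (minus strand). Capitals mark TGACG in all of them, TATAAA in Fos, and the EGR recognition sequence GCGNGGGCG in Fosb.
Fos: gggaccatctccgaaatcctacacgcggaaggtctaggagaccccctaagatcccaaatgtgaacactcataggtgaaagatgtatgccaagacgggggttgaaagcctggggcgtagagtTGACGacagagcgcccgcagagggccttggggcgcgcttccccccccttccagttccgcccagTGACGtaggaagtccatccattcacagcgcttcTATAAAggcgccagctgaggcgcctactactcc
Fosb: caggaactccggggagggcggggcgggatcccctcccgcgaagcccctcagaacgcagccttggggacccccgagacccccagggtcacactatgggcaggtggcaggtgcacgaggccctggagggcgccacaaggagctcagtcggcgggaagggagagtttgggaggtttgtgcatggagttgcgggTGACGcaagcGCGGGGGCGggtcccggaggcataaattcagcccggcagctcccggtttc
Junb: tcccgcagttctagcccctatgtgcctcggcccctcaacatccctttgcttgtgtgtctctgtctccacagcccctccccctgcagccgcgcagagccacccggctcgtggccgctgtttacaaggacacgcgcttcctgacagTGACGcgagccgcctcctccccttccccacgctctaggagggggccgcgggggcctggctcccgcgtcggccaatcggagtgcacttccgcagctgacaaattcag
In Fos, TGACG began 129 and 66 bases before the start, and TATAAA began 33 bases before it. TGACG began 60 bases before the start in Fosb and 106 bases before it in Junb. On either strand it was present in 4 of the 8 promoters (Atf3, Fosb, Junb and Fos), against 17.8% of all 32851 promoters in the table. The EGR sequence was present in Fosb and Zfp36, against 4.697% of all promoters, and TATAAA in Fos alone, against 12.4%. Neither the AP-1 sequence TGANTCA nor the full cAMP response element TGACGTCA was present in any of the 8, against 6.75% and 1.55% of all promoters. TGACG is contained in TGACGTCA, so these searches overlap. A CArG box, the sequence that SRF recognises, was found in Zfp36, against 1.47% of all promoters. It is shown in capitals in 30 bases of Zfp36 from chr7:28379267-28379296 (minus strand), which lie before the RefSeq start and inside the longer gene model of GENCODE M21.
Zfp36: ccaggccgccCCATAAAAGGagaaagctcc
These matches are a description of the letters in a short window and do not show that a factor was bound.

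The first question was whether LLRCs and non-LRC biliary cells differed in these transcripts. No member of the list passed the test, and the fitted differences were small beside their errors. The edgeR quasi-likelihood test called 0 of the 10 genes at an adjusted p below 0.05, where it called 0% of all genes tested. At an unadjusted p below 0.05 it called 0 of the 10 as well, against 5.16% of all genes. The adjusted p was 0.9999 for each of the 10 genes, and unadjusted p ran from 0.487 for Jund to 0.987 for Fosb. The fitted log2 fold changes (LLRC over non-LRC) were above 0 for 8 genes and below 0 for 2, Junb and Jund, with a median of 0.12 beside -0.015 over all genes tested. The values of the groups overlapped for all 10 genes, and 4.06% of all genes tested had groups that did not overlap. The number above 0 moved to 2 when the non-LRC library of JV6314 was left out, to 3 without the LLRC library of JV602 and to 10 without mouse JV624, so the direction over the list depended on single libraries. The median of the 10 ran from -0.17 to 0.37 on leaving out libraries or mice.

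**Figure D1:**
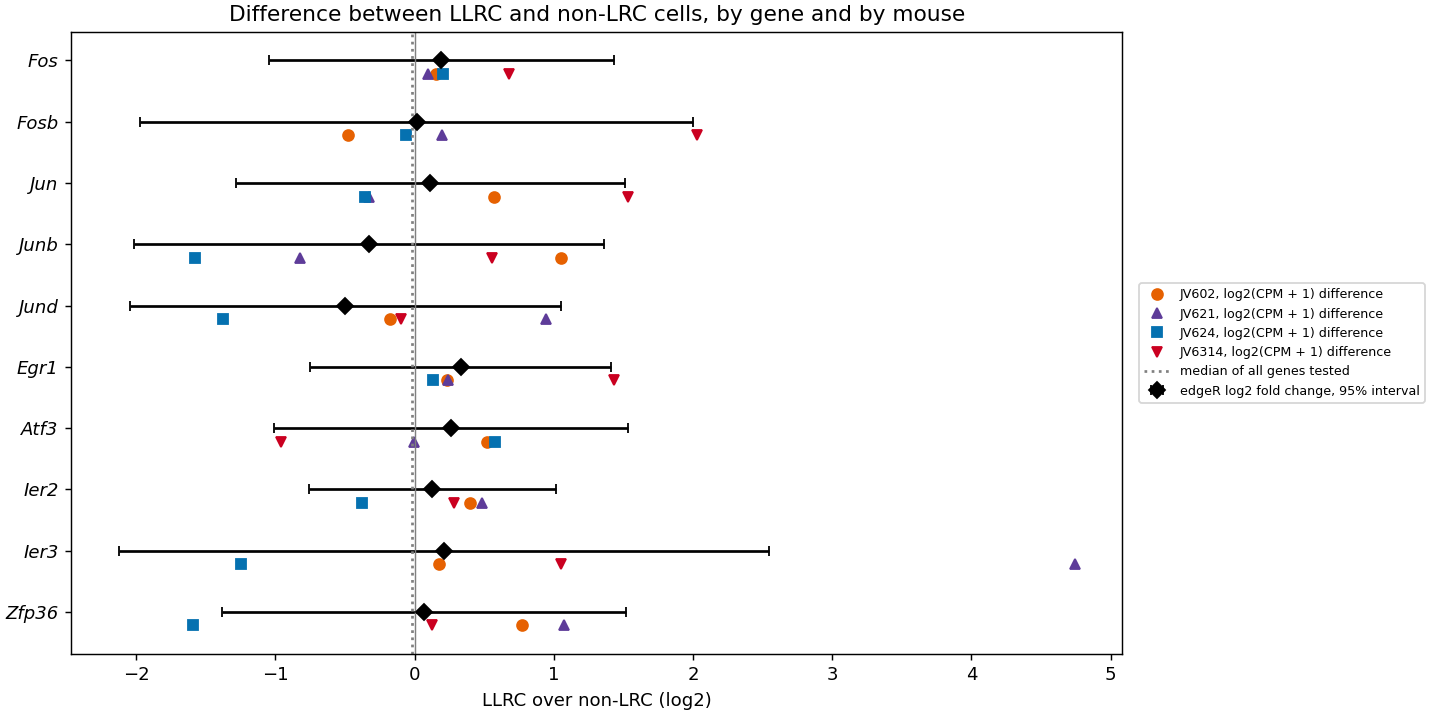
Difference between LLRC and non-LRC cells for each gene on a log2 scale. Diamonds are edgeR fold changes with 95% intervals (4 libraries per group), coloured points are the differences within each mouse on the log2(CPM + 1) scale, and the dotted line is the median of all genes tested. Every interval includes 0, and the points of a gene spread to both sides of 0 except for Fos and Egr1.

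Among the FOS genes, Fos (chr12:85473890-85477273, plus strand, GRCm38) had 1399, 1012, 1023 and 355.9 CPM in the LLRCs of JV602, JV621, JV624 and JV6314. The non-LRC cells of the same mice had 1260.0, 946.1, 887.2 and 221.6 CPM. Both libraries of JV6314 were far below the other 6, and within every mouse the LLRC library was the higher one. The group means were 947.7 ± 433.6 and 828.7 ± 436.6 CPM (SD, n = 4), which gave a fitted log2 fold change of 0.19 (SE 0.55, 95% interval -1.04 to 1.43). The mean difference within mice was 0.28 ± 0.27 on the log2(CPM + 1) scale, higher in LLRCs in 4 of 4 mice, with an exact two-sided sign-flip p of 0.13, the smallest that 4 mice allow. Fosb (chr7:19302696-19310051, minus strand), a FOS relative with its own transactivation domain, was sparse, with 91, 64, 77 and 35 counts in LLRCs and 101, 31, 75 and 1 count in non-LRC cells. These counts correspond to means of 7.90 ± 3.10 and 7.79 ± 5.76 CPM, and the groups were on a par except for JV6314. The log2 fold change of Fosb was 0.015 (SE 0.88, 95% interval -1.97 to 2.00), an interval from 0.255-fold to 4.00-fold.

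Among the JUN genes, Jun (chr4:95049034-95052222, minus strand), the main partner of FOS in AP-1, had 425.8, 274.5, 230.0 and 113.1 CPM in LLRCs and 285.8, 345.4, 295.0 and 38.5 CPM in non-LRC cells. It was higher in LLRCs in JV602 and JV6314 and lower in JV621 and JV624, and the log2 fold change was 0.11 (SE 0.62, 95% interval -1.28 to 1.51). Junb (chr8:84974484-84978718, minus strand), a weaker activator that can oppose Jun, had 287.0, 166.9, 91.0 and 40.0 CPM in LLRCs and 137.9, 295.9, 274.0 and 26.8 CPM in non-LRC cells. It showed the same split between mice as Jun, with a 2.08-fold higher level in the LLRCs of JV602 and a level 0.332 times that of non-LRC cells in JV624. The log2 fold change of Junb was -0.33 (SE 0.75, 95% interval -2.02 to 1.36). Jund (chr8:70698949-70700616, plus strand), the JUN gene usually transcribed in unstimulated cells, had only 33, 18, 14 and 26 counts in LLRCs and 30, 3, 44 and 16 counts in non-LRC cells. Its log2 fold change was -0.50 (SE 0.69, 95% interval -2.04 to 1.05), and JV6314 was not its lowest mouse. The reads were counted without strand, and 52.6% of the exon bases of Jund are shared with the antisense gene Gm11175. The counts of Jund are therefore uncertain and may be incomplete. Junb shares 7.52% of its exon bases with Prdx2, Jun 7.28% with Junos and Zfp36 3.60% with Gm44710, all on the opposite strand.

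Egr1 (chr18:34859823-34864984, plus strand) had 764.1, 1069.7, 914.6 and 481.1 CPM in LLRCs and 649.3, 905.2, 835.5 and 177.6 CPM in non-LRC cells. As with Fos, the LLRC library was the higher one in 4 of 4 mice, and JV6314 was the lowest in both groups. The means were 807.4 ± 250.8 and 641.9 ± 327.8 CPM, and the log2 fold change of 0.33 (SE 0.48, 95% interval -0.75 to 1.41) was the highest of the 10 genes. The difference within mice was 0.51 ± 0.62 on the log2(CPM + 1) scale (exact two-sided sign-flip p = 0.13), of which JV6314 contributed 1.43 and the other mice 0.13 to 0.24. Atf3 (chr1:191170296-191218039, minus strand) had 80.1, 75.5, 109.1 and 14.3 CPM in LLRCs and 55.5, 75.6, 72.8 and 28.8 CPM in non-LRC cells. It was the only one of the 8 genes lowest in both libraries of JV6314 that was lower in the LLRCs than in the non-LRC cells of that mouse. Its log2 fold change was 0.26 (SE 0.56, 95% interval -1.01 to 1.53).

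**Figure D2:**
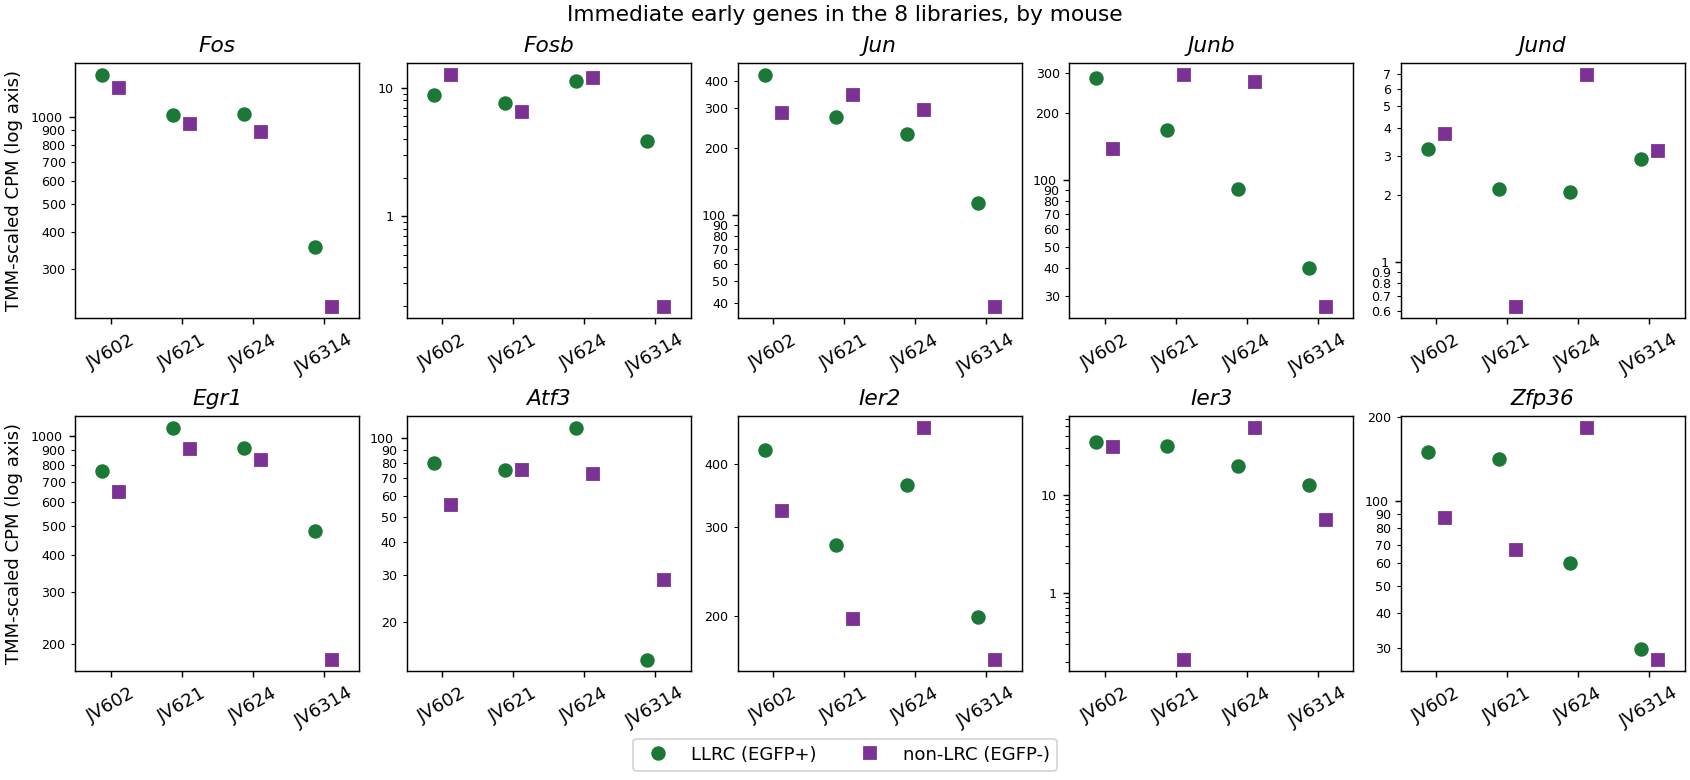
Level of each gene in the 8 libraries, as TMM-scaled CPM on log axes, by mouse (LLRC circles, non-LRC squares; 1 library per point). The JV6314 point is the lowest of its group in both groups in 8 of the 10 panels, the exceptions being Jund and Ier3, and the groups overlap in every panel.

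Ier2 (chr8:84661331-84662852, minus strand), a small nuclear protein induced by growth factors, had 425.5, 275.7, 362.1 and 198.8 CPM in LLRCs and 322.9, 196.7, 471.2 and 163.6 CPM in non-LRC cells. Its SE was the smallest of the 10 genes, with a log2 fold change of 0.13 (SE 0.39, 95% interval -0.76 to 1.02), an interval from 0.591-fold to 2.02-fold. Ier3 (chr17:35821684-35822923, plus strand), a regulator of cell survival, had 355, 265, 135 and 113 counts in LLRCs and 243, 1, 307 and 28 counts in non-LRC cells. Its SE was the largest of the 10. The non-LRC library of JV621 had the single count, while the LLRC library of the same mouse had 31.3 CPM. The means were 24.5 ± 10.2 and 21.2 ± 22.5 CPM and the log2 fold change 0.21 (SE 1.03, 95% interval -2.12 to 2.54). That library detected 14234 genes, the fewest of the 8, against 16042 to 20430 in the others. The part of this lower complexity in the level of Ier3 was not tested. Zfp36 (chr7:28376784-28380253, minus strand), which encodes tristetraprolin, had 149.7, 141.7, 60.0 and 29.8 CPM in LLRCs and 87.0, 66.8, 182.6 and 27.2 CPM in non-LRC cells. It was higher in LLRCs in 3 of 4 mice, while in JV624 its LLRC level was 0.329 times the non-LRC level, and the log2 fold change was 0.067 (SE 0.64, 95% interval -1.39 to 1.52). Exact two-sided permutation tests over the 8 libraries gave p from 0.457 for Ier3 to 0.971 for Zfp36 across the 10 genes, where 0.0286 is the smallest that 4 against 4 libraries allow.

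The mice themselves differed in direction. Of the 10 genes, 8 were higher in LLRCs in JV602, 7 in JV621, 3 in JV624 and 8 in JV6314. The median difference over the 10 genes was 0.32, 0.22, -0.37 and 0.62 in the same order, on the log2(CPM + 1) scale. These values were not taken over all genes tested. A shift of a whole pair of libraries therefore cannot be told apart from a shift of these genes. Fos and Egr1 were the 2 genes that were higher in LLRCs in every mouse. Since each mouse gave 1 library per group, a difference within a mouse has no replicate of its own. With the mouse as a replicate block in the same edgeR fit, 0 of the 10 genes were called, their median log2 fold change was 0.24 beside 0.14 for all genes tested, and the smallest unadjusted p was 0.164, for Egr1. The log2 fold changes in that fit ran from -0.19 for Junb to 1.05 for Ier3, with 0.60 for Fosb, 0.28 for Fos, 0.35 for Jun and 0.038 for Atf3.

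The levels were next compared between mice, over both groups. In JV6314, 8 of the 10 genes had their lowest value of the group in both the LLRC and the non-LRC library, which 8.27% of all genes tested also had. Jund and Ier3 were the exceptions. None of the 10 genes was lowest in both libraries of JV602, JV621 or JV624, where 4.39%, 11.9% and 3.81% of all genes tested were. JV6314 was singled out after its values had been seen, so these counts are a description. The mean of the other 3 mice over JV6314 was 3.22 in LLRCs and 4.65 in non-LRC cells for Fos, 2.74 and 8.02 for Jun, 4.54 and 8.79 for Junb, and 3.94 and 4.12 for Zfp36. It was 1.90 and 4.49 for Egr1 and 1.78 and 2.02 for Ier2. Atf3 had the largest ratio of the 10 genes in LLRCs, 6.16, and a ratio of 2.36 in non-LRC cells. When JV6314 was left out, the SD of log2(CPM + 1) for Fos was 0.27 in place of 0.86 in LLRCs and 0.27 in place of 1.12 in non-LRC cells. For Egr1 it was 0.24 in place of 0.50 and 0.25 in place of 1.09. This SD was smaller without JV6314 for 9 of the 10 genes in LLRCs and for 8 of the 10 in non-LRC cells. JV6314 held the lowest value of the group for those same genes, and dropping an extreme value tends to lower an SD. No such count was made over all genes tested. In non-LRC cells the SD moved little for Ier2 (0.69 to 0.63) and was larger for Ier3 (2.43 to 2.92) and Jund (0.95 to 1.17).

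A term for the mouse, added to the edgeR fit after the values had been seen, had an unadjusted p below 0.05 in 5 of the 10 genes, Fos, Jun, Junb, Atf3 and Egr1, and in 2.23% of all genes tested. These ran from an unadjusted p = 0.00498 for Fos to an unadjusted p = 0.0468 for Egr1 (edgeR quasi-likelihood F test). None passed adjustment (edgeR, adjusted p = 0.981 for each), and the number was 0 of 10 without JV6314, 3 without JV602, 5 without JV621 and 6 without JV624. The 10 genes tended to move together, with a Pearson r above 0 in 40 of their 45 pairs over the 8 libraries, a median of 0.72 and a range from -0.21 to 0.96. These r share the same libraries and scaling, were not computed for other gene pairs, and are given without a test. The mean of the standardized log2(CPM + 1) values of the 10 genes was -0.85 in the LLRC library of JV6314. It was -1.45 in the non-LRC library of JV6314 and between -0.21 and 0.82 in the other libraries. The drop in JV6314 thus enters each r. The r of a gene with the mean of the 10 was highest for Zfp36 (0.93), Fos (0.92) and Ier2 (0.92) and lowest for Jund (0.27). Each gene is itself part of that mean, which raises its r.

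The 10 genes together took 0.415% of all counts in the LLRCs of JV602, 0.298% in those of JV621, 0.244% in those of JV624 and 0.114% in those of JV6314. In the non-LRC libraries, with the mice in the same order, they took 0.282%, 0.230%, 0.377% and 0.0752%. JV6314 had the smallest share in both groups, and the shares of the groups overlapped. The LLRC library of JV6314 was the deepest of the 8, with 9851819 counts, and its non-LRC library the shallowest, with 4670132. Epcam had 547.2 and 477.7 CPM in these libraries and Krt19 136.8 and 145.6 CPM. Hepatocyte markers summed to 3161 and 5471 CPM in JV6314, the highest of the LLRCs and below only JV624 among the non-LRC cells. The LLRCs of JV602 were close, at 3134 CPM, and most of the LLRC sum of JV6314 was Alb (2272 CPM). Cyp3a11 had 253.8 CPM in its LLRCs, against 11.9 to 58.2 in the other mice, and 1351 CPM in its non-LRC cells, against 73.9 to 381.8, while Hnf4a was the lowest of each group, at 12.5 and 17.8 CPM. Apoa1, Cyp2e1 and Cps1 were second to JV624 in both groups. Ass1 was the lowest of the LLRCs (6.33 CPM) and second to JV624 among the non-LRC cells (29.8 CPM). Stellate and fibroblast markers summed to 9926 and 9007 CPM, the highest of each group, most of it Rgs5 (9242 and 6761 CPM), while Lrat was the lowest of the LLRCs (4.22 CPM) and the highest of the non-LRC cells (74.2 CPM). Acinar markers summed to 4.55 and 837.6 CPM. The part of cell composition in the levels of these genes was not tested. Collection dates and sort times were not used here.

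**Figure D3:**
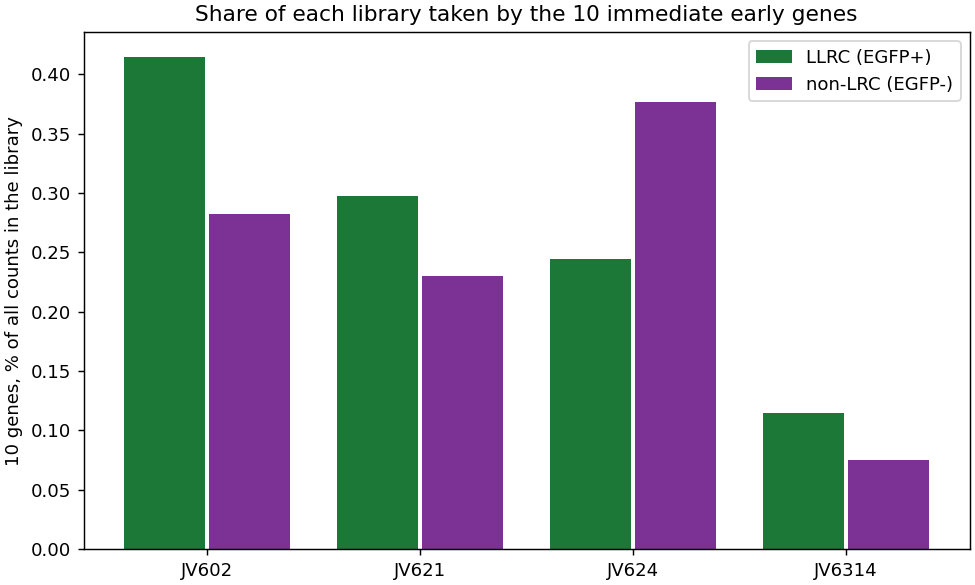
Share of all counts taken by the 10 genes in each library, in percent, by mouse (LLRC and non-LRC bars side by side, 1 library per bar, axis from 0). The share runs from 0.0752% to 0.415%, and both bars of JV6314 are below all others.

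The rest of the early response was followed in 6 lists with 115 genes, of which 97 could be tested. None was called after adjustment by edgeR, where 0% of all genes tested were called, and 1 was higher and 4 were lower in LLRCs at an unadjusted p below 0.05, beside 5.16% of all genes. Fitted fold changes were above 0 for 38 and below 0 for 59 of the 97, with a median of -0.11. Of the 97, 17 genes (17.5%) were lowest in both libraries of JV6314, beside 8.27% of all genes tested.

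Among the AP-1 relatives, 9 of 14 genes were tested, 3 with a fold change above 0 and 6 below, with a median of -0.21. Fosl2, the FOS relative also known as Fra-2, had 9.60, 14.0, 7.501 and 6.99 CPM in LLRCs and 26.3, 115.9, 20.8 and 9.08 CPM in non-LRC cells, lower in the LLRCs of every mouse. Its log2 fold change was -2.17 (SE 0.75, unadjusted p = 0.0169, edgeR adjusted p = 0.734). Atf4, the translationally controlled stress factor, had 24.7 ± 3.85 and 26.7 ± 10.4 CPM, and Maff, a small MAF protein, 1.83 ± 0.71 and 1.504 ± 0.91. Maf, a larger relative named after its values had been seen, was the other gene of this list lower in LLRCs at an unadjusted p below 0.05, with a log2 fold change of -1.27 (SE 0.37). Fosl1 had 0 counts in all 8 libraries, below the 3 counts that correspond to 0.291 to 0.626 CPM.

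Of 24 other early regulators, 19 were tested, 7 with a fold change above 0 and 12 below, with a median of -0.20. Klf10, a zinc finger factor induced by TGF-beta, was the highest at 0.58 (SE 0.42) and Klf2, a zinc finger factor prominent in endothelial cells, the lowest at -2.32 (SE 0.77, unadjusted p = 0.0141, edgeR adjusted p = 0.688). Klf2 had 1.94, 0.83, 1.62 and 1.11 CPM in LLRCs and 1.38, 3.34, 10.3 and 12.8 CPM in non-LRC cells, so that it was lower in the LLRCs of all mice but JV602. The endothelial markers differed in the same direction, as given above, and the part of endothelial RNA in the levels of Klf2 and Fosl2 was not tested. Klf6 and the antiproliferative gene Btg2 differed by less than their spread, at 252.8 ± 54.2 and 225.3 ± 172.6 CPM for Klf6 and 275.3 ± 106.5 and 259.2 ± 96.6 CPM for Btg2. Egr2 (log2 fold change -0.66, SE 0.65), Nr4a1 (-0.47, SE 0.77) and Myc (-0.20, SE 0.62), with Btg2 and Hes1, were the 5 genes of this list that were lowest in both libraries of JV6314. Cebpd, a C/EBP factor named after its values had been seen, was the other gene of this list lower in LLRCs at an unadjusted p below 0.05, with a log2 fold change of -1.87 (SE 0.77).

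Of 31 feedback and stress genes, 27 were tested, 9 with a fold change above 0 and 18 below, with a median of -0.073. Dusp1, the phosphatase that shuts off MAP kinases, had 950.2, 644.1, 1042 and 350.5 CPM in LLRCs and 895.8, 1002, 665.5 and 429.0 CPM in non-LRC cells. It was also lowest in both libraries of JV6314, with a log2 fold change of -0.0026 (SE 0.40). Dusp6, a cytoplasmic relative of Dusp1, had 286.7 ± 129.4 and 311.9 ± 142.7 CPM, and the NF-kappaB inhibitor Nfkbia 129.5 ± 29.9 and 136.1 ± 56.3 CPM. Nfkbia differed from the 10 genes in JV6314, where its level was the highest of each group, 165.4 and 213.5 CPM. The relatives of Zfp36 had log2 fold changes of -0.51 (SE 0.49) for Zfp36l1 and -0.073 (SE 0.295) for Zfp36l2. The extremes of the list were the survival gene Mcl1 at 0.52 (SE 0.38) and the kinase gene Pim1 at -1.24 (SE 0.77).

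Of 12 secreted early products, 8 were tested, 4 with a fold change above 0 and 4 below, with a median of 0.19. Ccn1, a matricellular protein and target of SRF and YAP, had 649.9, 698.3, 955.2 and 152.9 CPM in LLRCs and 493.7, 457.9, 651.7 and 148.0 CPM in non-LRC cells. The LLRC library was the higher one in every mouse, both JV6314 libraries were the lowest, and the log2 fold change was 0.49 (SE 0.58). Hbegf, an EGF receptor ligand, was likewise higher in the LLRCs of every mouse and lowest in JV6314, with 57.6, 61.1, 105.6 and 33.0 CPM in LLRCs and 50.7, 44.9, 46.7 and 27.2 CPM in non-LRC cells (log2 fold change 0.60, SE 0.39). Thbs1 at 1.23 (SE 1.19) and Edn1 at -1.72 (SE 0.77) were the extremes.

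All 18 upstream genes were tested, 7 with a fold change above 0 and 11 below, with a median of -0.088. Srf, the factor that binds CArG boxes, had 2.67 ± 1.90 and 3.30 ± 2.06 CPM. The extremes were Mrtfa, an SRF coactivator, at 1.08 (SE 1.013) and Elk3, an SRF partner, at -1.32 (SE 0.73). Elk1, another partner of SRF, was the only gene of this list lowest in both JV6314 libraries, where it had 0 counts. Of the 16 heat shock genes, 8 were above 0 and 8 below, with a median of 0.0011. Dnajb4, an HSP40 co-chaperone, was the gene of the 6 lists that was higher in LLRCs at an unadjusted p below 0.05, with 127.9 ± 31.4 and 74.1 ± 14.4 CPM and a log2 fold change of 0.79 (SE 0.28, unadjusted p = 0.0214, edgeR adjusted p = 0.79). The inducible HSP70 genes Hspa1a and Hspa1b were low in both libraries of JV6314, at 2.11 and 1.78 CPM for Hspa1a and 1.89 and 0.99 CPM for Hspa1b. In the other mice Hspa1a ran from 8.68 to 49.5 CPM and Hspa1b from 5.01 to 81.2 CPM. These are near-identical copies, so the split of reads between them is uncertain. Hspa8, the constitutive HSP70 gene, had 264.7 ± 21.8 and 228.4 ± 36.1 CPM and in JV6314 had 243.0 CPM, the lowest of the LLRCs, and 264.2 CPM, the highest of the non-LRC cells.

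**Figure D4:**
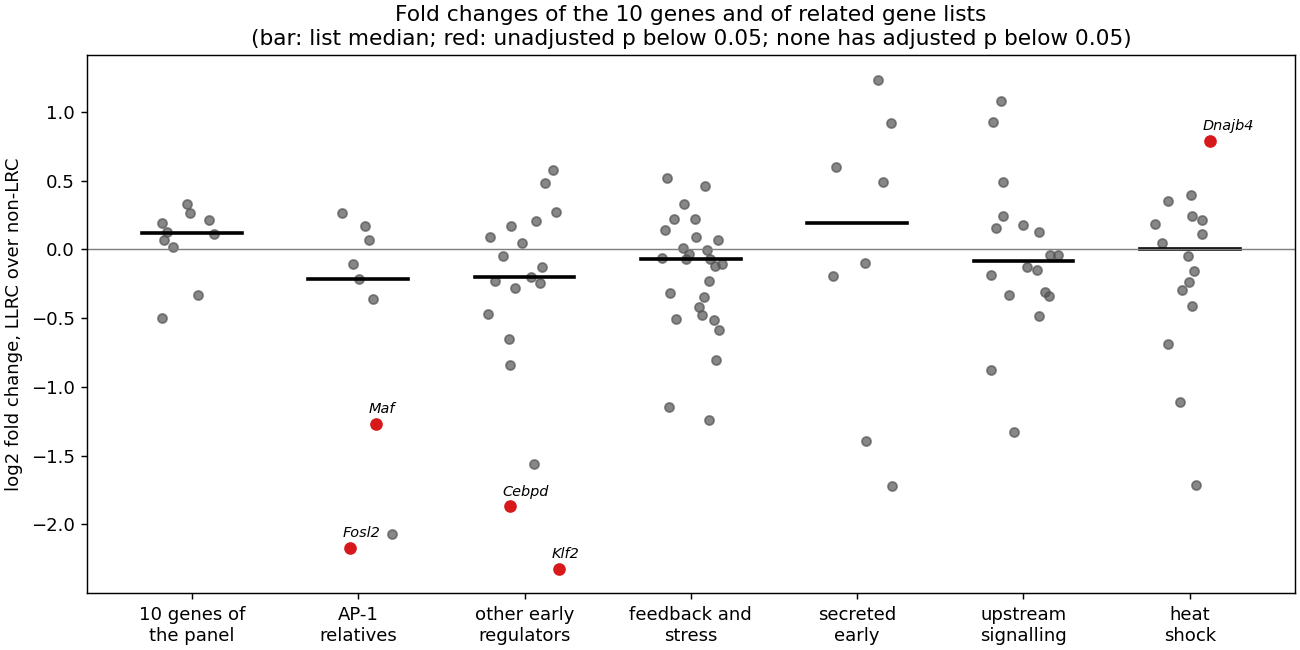
Log2 fold changes (LLRC over non-LRC, edgeR) of the 10 genes and of the tested genes of 6 related lists, 1 point per gene, with bars at the list medians and red points for an unadjusted p below 0.05. The 10 genes lie between -0.50 and 0.33, and the 5 red points are Fosl2, Maf, Klf2 and Cebpd below 0 and Dnajb4 above it, none past adjustment.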

How the data were processed

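RNA-Seq of 8 libraries from 4 mice was analysed. The reads were mapped at a service facility, with an aligner not given in the sources used here, and the authors counted them with HTSeq (union mode, exons, without strand, GRCm38.p4), and deposited them as raw, unscaled counts for each gene. A deposited table of the authors' own edgeR comparison, which holds fold changes and p-values, was not used.

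Counts were tested with edgeR 4.0.16 (R 4.3.3) by the quasi-likelihood test with the group as the only term, TMM scaling (factors 0.816 to 1.23), filterByExpr (13605 genes left of 46603), and Benjamini-Hochberg adjustment over all genes tested with a threshold of 0.05. DESeq2 1.42.0 and limma 3.58.1 served for alternatives, and the fits were tested on simulated data. Symbols, positions and exon lengths were from GENCODE M21 (GRCm38) for 46091 identifiers, with 512 unmatched. Differences within mice and exact tests used log2(CPM + 1). The p-values measure the spread between libraries of 4 animals. Both libraries of a mouse came from the same animal, so the mouse pairs them. Deviations from the group means correlated within mice at 0.090 in JV602, 0.098 in JV621, 0.0040 in JV624 and 0.19 in JV6314. No batch is given by the labels.

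The 10 genes and all lists were chosen with earlier results of these data known. Named beside them were preset genes of the lists, the highest and lowest fold change of each list, any list gene past the adjusted threshold, and the 5 genes most correlated with the mean of the 10. Genes named outside this rule are marked as such or are counts of 5 or fewer.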

Additional observations from a re-analysis of the deposited data

How the results depend on the processing

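Of the 10 genes, 0 were called in each of the 22 alternatives, and 0 had an unadjusted p below 0.05 in any. Of all genes tested, edgeR's quasi-likelihood test called 0 (702 at an unadjusted p below 0.05), against 11 with no filter, 73 with the newer dispersion form, 159 with edgeR's exact test and 221 with DESeq2. Leaving out libraries or mice gave 0 to 6, the highest without the non-LRC library of JV602. With the replicate block (mouse), 0 genes were called, and the median of the 10 was 0.24 beside 0.14 for all genes tested. The block changed no call. Limma moved the median of all genes tested to 0.10. Genes of the 10 with a fold change above 0 numbered 2 to 10 on leaving out libraries or mice, and those with a mouse term below 0.05 numbered 0 to 6. Fosb turned to -0.0086 with DESeq2 size factors, -0.076 with library size only, -0.041 with the newer dispersion form and -0.0079 with DESeq2. Zfp36 turned to -0.014 with library size only and -0.055 with limma, and Ier2 to -0.051 with limma. On leaving out libraries or mice, log2 fold changes ran from -0.12 to 0.47 for Fos, -0.38 to 0.34 for Fosb, -0.24 to 0.37 for Jun, -1.02 to 0.10 for Junb, -0.83 to 0.12 for Jund, -0.029 to 0.61 for Atf3, -0.061 to 0.47 for Ier2, -0.33 to 1.11 for Ier3, and -0.30 to 0.83 for Zfp36. For Egr1 they stayed above 0, from 0.025 to 0.55. The cause of these changes was not tested. Genes lowest in both libraries of JV6314 were 7 with library size only and 8 with DESeq2 size factors. Fosb, Jund and Ier3 had 1 to 3 counts in at least 1 library, where 3 counts correspond to 0.291 to 0.626 CPM, and levels at or under that are imprecise.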

Other observations

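The 5 genes tested whose log2(CPM + 1) followed the mean of the 10 immediate early genes most closely over the 8 libraries were Nupl2, Pdik1l, Tecpr2, Entpd2 and Ncbp1, with Pearson r from 0.965 to 0.968. They were picked from 13605 genes for this likeness, which therefore has no test. Ncbp1, which encodes a subunit of the nuclear cap-binding complex, had 15.2, 15.97, 12.9 and 8.99 CPM in LLRCs (mice in the order JV602, JV621, JV624, JV6314) and 17.4, 11.1, 20.5 and 4.93 CPM in the non-LRC cells. Entpd2, which encodes an ATP-hydrolysing ectoenzyme of the cell surface, had 95, 44, 20 and 13 counts in LLRCs and 37, 16, 50 and 0 counts in non-LRC cells. Pdik1l had 27.6, 24.4, 21.5 and 7.77 CPM in LLRCs and 16.4, 9.19, 28.9 and 4.34 CPM in non-LRC cells. In each of these genes both libraries of JV6314 were the lowest of their group.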
